A study of Caenorhabditis elegans with 2 samples.

Results

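The promoter peaks of the *Caenorhabditis elegans* X chromosome were the peaks of the optimal irreproducible discovery rate (IDR) list whose summit lay at most 1000 bp upstream or 200 bp downstream of the start of any transcript of a protein-coding gene in WBcel235 (ce11). Summits closer than 20 kb to the centre of *mdl-1*, itself an X gene and the labelled source of the tagged protein, were left out. This gave 241 of 2103 IDR peaks. The chromosome held 514 IDR peaks, of which 19 lay near *mdl-1* (4 of these in promoter windows), 254 lay elsewhere outside promoter windows, and 241 remained. The 241 summits fell in 239 distinct intervals, because the peaks of *bet-2* and of *tatn-1* each carried a pair of summits.

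Chromatin was immunoprecipitated through an eGFP tag from whole larvae of the L2 stage, mixed in sex, in 2 biological replicates of 1 group, with fragments of 150 to 350 bp. The strain was OP355, with the genotype unc-119(tm4063) III and the integrated transgene wgIs355, so every library came from worms with the *unc-119* allele and the tagged extra copy. Different names of the factor stand in the labels, *mdl-1* as source and antibody target and ZK337.2 in the free description. Samples without the tag, and the control library, were not analysed here, and read depth is unknown. All cells of the larva were pooled, so a peak present in few cells and a weak peak in many cells cannot be told apart. Intervals given below are exact (Clopper-Pearson, 95%) and cover counting error over peaks or genes only.

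MDL-1 is a Mad-like basic helix-loop-helix leucine zipper protein. Proteins of the Myc, Mad and Max network bind DNA as dimers with a Max-like partner at E-boxes, of which CACGTG is the canonical form, and Mad proteins are known as repressors that oppose Myc-type activators. In worms, hermaphrodites carry a pair of X chromosomes and males a single one, and a dosage compensation complex that is recruited to X lowers its transcription in hermaphrodites.

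Short windows around the summits are shown for the highest-signal peaks that hold a motif within 30 bp of the summit and no annotated untranslated region, because the motif results below rest on such windows. All are the plus strand of WBcel235, 5′ to 3′, centred on the summit, read from the RefSeq assembly of that build, and capitals mark the motif. The first set holds the E-box CACGTG, which reads the same on both strands. All 6 genes lie on the plus strand.
C36E6.2 (chrX:17451560-17451620): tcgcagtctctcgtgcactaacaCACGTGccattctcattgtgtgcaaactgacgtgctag
bet-2 (chrX:10568573-10568633): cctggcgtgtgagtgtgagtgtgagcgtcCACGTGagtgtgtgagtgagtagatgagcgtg
F53H4.4 (chrX:15866324-15866384): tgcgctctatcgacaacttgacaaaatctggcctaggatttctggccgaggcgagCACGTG
nhr-32 (chrX:13251580-13251640): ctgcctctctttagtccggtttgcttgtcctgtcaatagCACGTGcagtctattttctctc
epg-7 (chrX:7334544-7334604): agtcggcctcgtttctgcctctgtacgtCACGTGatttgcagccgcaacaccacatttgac
ZK470.2 (chrX:4145134-4145194): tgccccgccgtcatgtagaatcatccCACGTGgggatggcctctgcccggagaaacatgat

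In these windows the E-box centre was 0 bp from the summit at *epg-7*, 2 bp at *bet-2* and ZK470.2, and 28 bp at F53H4.4. The second set holds GAGAGA on either strand and no CACGTG within 50 bp. *zfp-3* lies on the minus strand and the other genes on the plus strand.
eef-1A.2 (chrX:7823202-7823262): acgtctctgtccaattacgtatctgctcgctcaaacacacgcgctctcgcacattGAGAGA
nipi-3 (chrX:15607658-15607718): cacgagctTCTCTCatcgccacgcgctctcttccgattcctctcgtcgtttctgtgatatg
zfp-3 (chrX:1446940-1447000): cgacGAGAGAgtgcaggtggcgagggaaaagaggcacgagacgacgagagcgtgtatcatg

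The third set holds CTGCGTCT, an 8-base sequence, on either strand. It was in 1.01% of windows centred 250 bp upstream of the start of all 19973 protein-coding genes. All 3 genes lie on the minus strand.
hsp-3 (chrX:6092151-6092211): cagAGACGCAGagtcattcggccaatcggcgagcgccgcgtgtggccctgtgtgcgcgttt
F28C10.3 (chrX:535920-535980): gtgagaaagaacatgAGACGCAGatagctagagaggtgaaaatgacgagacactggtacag
cebp-1 (chrX:1454580-1454640): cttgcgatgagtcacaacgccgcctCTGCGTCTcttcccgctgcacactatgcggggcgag

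The window of the highest-signal member, *epn-1* (minus strand), is shown because it holds none of the 9 motifs searched within 50 bp of its summit. Its 61 bases were 68.9% G or C.
epn-1 (chrX:14818926-14818986): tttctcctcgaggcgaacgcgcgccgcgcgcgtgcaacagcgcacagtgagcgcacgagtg

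The strongest promoter peak on X lay 442 bp upstream of *epn-1* (chrX:14815798-14818514), which encodes an epsin-like protein with an ENTH domain that acts in clathrin-mediated endocytosis. Its signal was 607 in the IDR list, 233.8 in replicate 1 and 377 in replicate 2. It ranked 6 among all IDR peaks and was the only member among the 20 highest-signal peaks of the genome. The signal is the authors' own value of unstated scaling, and it served to rank and describe peaks within a list. The IDR signal of the members was close to the sum of both replicate signals, with a median ratio of 0.997 (quartiles 0.967 and 1.02), so the 3 values of a peak are not independent.

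The next peak lay 80 bp upstream of C36E6.2 (chrX:17451670-17455868), whose product carries the FW domain of the autophagy receptor Nbr1. It had an IDR signal of 381, with 169 in replicate 1 and 212 in replicate 2. *mans-3*, an alpha-1,2-mannosidase of glycoprotein processing, followed with 299.6 (122 in replicate 1 and 179 in replicate 2). *bet-2*, a bromodomain protein of the BET family that reads acetylated histones, had 298, with 93.8 in replicate 1 and 215 in replicate 2. *epn-1* stood well apart from these 3 in both replicates.

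The peak at *puf-9*, a Pumilio-type repressor that binds messenger RNA, had an IDR signal of 289 (124 in replicate 1 and 169 in replicate 2). That of *eef-1A.2*, translation elongation factor 1-alpha, had 287 (108 and 182). *nipi-3* encodes a Tribbles-like kinase of the epidermal immune response, and its stronger peak had 274 (99.8 and 180). *zfp-3*, a C3H1 zinc finger gene, had 270.3 (95.5 and 175). The value of replicate 2 was the higher one at each of these genes. *tatn-1*, tyrosine aminotransferase, had 264 (91.0 and 168).

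The other peaks among the 20 highest ran from 257 at *nspc-17*, a nematode-specific peptide gene, down to 183 at *eor-2*, a gene of the Ras pathway. Between them lay K02A6.3 (F-box protein), *serp-1.1* (stress-associated endoplasmic reticulum protein) and *ain-1*, a partner of the Argonaute ALG-1 in microRNA silencing. F53H4.4 (Mab-21 domain) shared a peak with *csb-1*, a DNA repair gene. *nhr-32* (nuclear hormone receptor), F13C5.2 (another bromodomain protein), R04E5.9 with the metal transporter gene *cnnm-2*, the autophagy scaffold gene *epg-7* and ZK470.2 completed the group. All 20 were in the top lists of both replicates, meaning that they overlapped at least 1 of the 2103 highest-signal peaks of each. The replicate 2 signal exceeded that of replicate 1 at all 20, by 1.25 to 2.29 times. Of these peaks, 19 lay in intergenic sequence, 8 held CACGTG within 50 bp of the summit and 8 held GAGAGA.

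**Figure D1:**
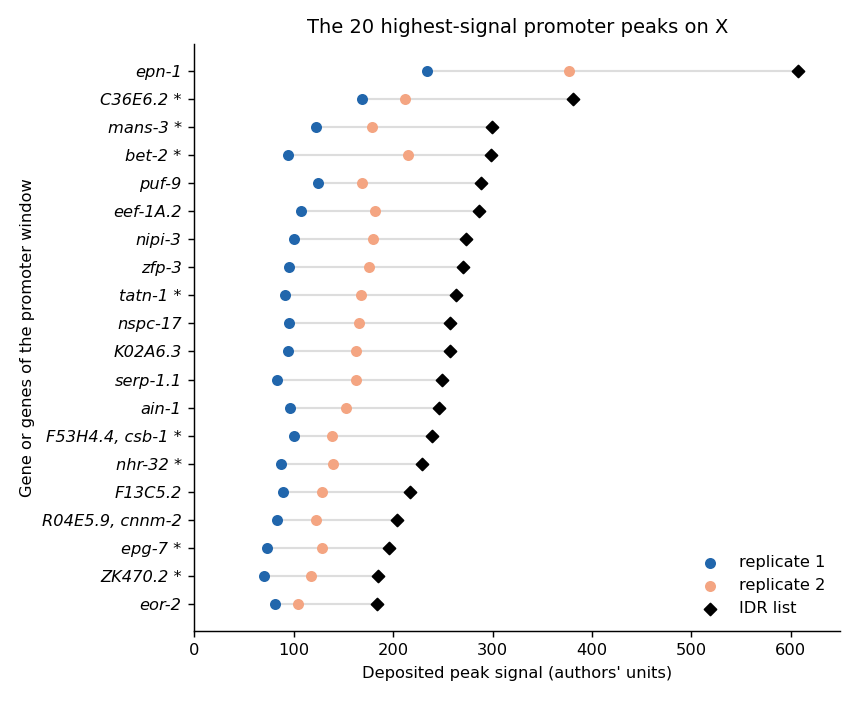
Deposited peak signal (x axis, authors' units) of the 20 highest-signal promoter peaks on X, named by the genes whose window holds the summit. Circles are the replicates, diamonds the IDR list, and an asterisk marks CACGTG within 50 bp. Replicate 2 lies above replicate 1 at all 20 peaks, and *epn-1* stands apart at 607.

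Over all 241 members the IDR signal ranged from 32.5 to 607 with a median of 53.03. The 857 autosomal promoter peaks ranged from 32.5 to 615 with a median of 52.3. Signals of 100 or more were seen at 54 members (22.4%) and at 137 autosomal promoter peaks (15.99%), and signals of 200 or more at 17 members (7.05%) and 34 autosomal ones (3.97%); these thresholds were chosen after the values were seen and were not tested. The share above the median signal of the IDR list was tested. It was 124 of 241 (51.5%, interval 44.95 to 57.9%) on X and 436 of 857 (50.9%, interval 47.5 to 54.3%) on the autosomes, a difference that did not pass (two-sided Fisher's exact test, adjusted p = 1 over 4 such comparisons). Among the 1000 highest-signal IDR peaks alone, X promoter peaks were above the median of that list more often, by 13.01 percentage points (Fisher's exact test, adjusted p = 0.0259). Peaks are not independent replicates, and the tests in this section describe these peaks. The 254 X peaks outside promoter windows had a median signal of 50.7 and reached 461.

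The weakest members were *sgca-1*, with a signal of 32.9, K10B3.5, with 32.9, and the peak shared by *hst-6* and *rga-8*, with 32.5, the last of the IDR list. At the edges of the promoter window, *fbxb-58* was the farthest upstream member at 980 bp (signal 181), and the nearest X peak past that edge lay 1013 bp upstream of a start of *aex-3* (41.4). K10B3.5 was the farthest downstream at 177 bp, and the nearest peak past that edge lay 250 bp downstream of a start of ZK470.2 (48.9).

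The IDR list came from the replicate and pooled lists and is meant to hold reproducible peaks. Agreement of the 2 replicates over the members thus follows at least in part from the choice of peaks, and is given as a description. It does not hold for each member singly, since the peak shared by *nmat-1* and *ucr-2.1* had no replicate 1 peak. A replicate 1 peak overlapped 240 of the 241 members and a replicate 2 peak overlapped all 241, with summits a median of 30 bp apart. Spearman's rho of the signals was 0.68 over these 240 peaks and 0.59 over 854 autosomal promoter peaks; the points of each share both libraries, and the values are descriptions. Replicate 2 gave the higher signal at 217 members and replicate 1 at 23, with a median ratio of 1.67 and a range from 0.354 to 11.8. Of the members, 189 (78.4%) were in the top list of replicate 1, 217 (90.0%) in that of replicate 2, 168 in both and 3 in neither. The replicate signals given here are those of the overlapping peak with the nearest summit, which was itself outside the top list at 3 of the 189 members (*rgs-6* among them) and at 2 of the 217. The share in both was 69.7% (interval 63.5 to 75.4%) on X and 69.8% (66.6 to 72.8%) on the autosomes, with an adjusted p of 1 by Fisher's exact test.

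With the members divided by signal into 4 groups of 60 or 61, the number in both top lists was 61 of 61 in the highest group, then 56 of 60, 41 of 60 and 10 of 60 in the lowest. The IDR signal was close to the sum of the replicate signals, which also define the top lists. This order thus follows at least in part from how the groups were made. At *rgs-6*, a regulator of G-protein signalling, the signal was 13.3 in replicate 1 and 78.2 in replicate 2. The peak shared by *nmat-1* and *ucr-2.1* had 40.5 in replicate 2 and no replicate 1 peak. Further genes, chosen after their values were seen, stood far down the list of replicate 1, F44A6.5 at rank 21250, *ifp-1* at rank 24190 and C05G5.1 at rank 17552. The opposite case, chosen likewise, was F40B5.2, with 22.1 in replicate 1 and 7.84 in replicate 2.

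**Figure D2:**
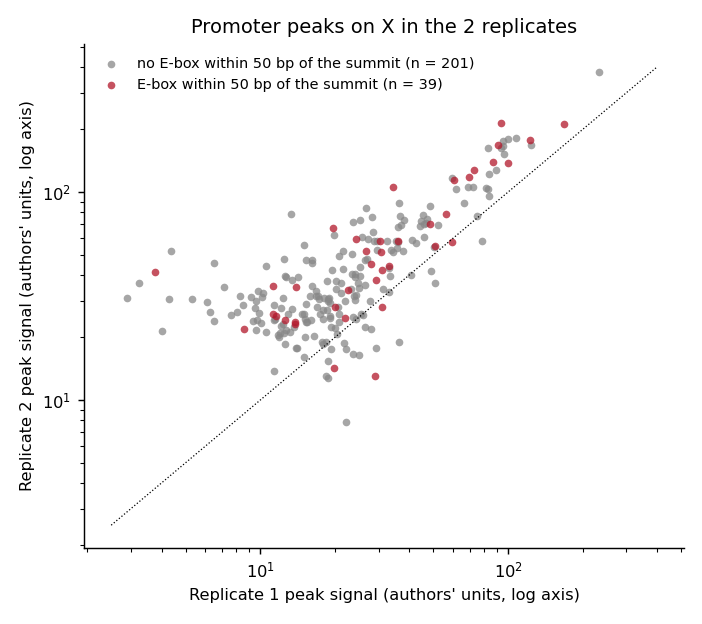
Replicate 1 against replicate 2 peak signal (authors' units, log axes) for the 240 members with a peak in both. Each point is a peak, red where CACGTG lay within 50 bp of the summit, and the dotted line marks equal values. Most points lie above the line, and the spread is widest among weak peaks.

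The canonical E-box was several times more frequent at the X promoter summits than beside them. CACGTG lay within 50 bp of the summit at 39 of 241 members (16.2%, interval 11.8 to 21.5%) and in 2.28% of equal windows 500 bp to either side (exact McNemar test against 1 drawn flank per peak, adjusted p = 3.14e-08 over 9 motifs). GAGAGA was found at 70 members (29.05%, interval 23.4 to 35.2%) and in 6.22% of flanks (exact McNemar test, adjusted p = 5.51e-10). CTGCGTCT was found at 18 members (7.47%) and in 0.207% of flanks (exact McNemar test, adjusted p = 1.72e-04). The homeodomain core AATTAA was rarer at summits, at 5 members (2.07%) against 15.4% of flanks (exact McNemar test, adjusted p = 6.55e-10). Both strands were searched throughout. The 9 motifs were chosen with earlier results of these data known. Their p-values, here and in the comparisons with the autosomes below, therefore describe these peaks and are not independent support.

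The other motifs did not pass. The general E-box pattern CANNTG, which includes CACGTG and CATGTG, was at 48.1% of summits and 37.1% of flanks (exact McNemar test, adjusted p = 0.0541). By the same exact test, CATGTG was at 8.71% and 4.15% (adjusted p = 0.0672), the GC box GGGCGG at 3.32% and 0.415% (adjusted p = 0.0586), and the GATA site TGATAA at 9.13% and 11.4% (adjusted p = 0.652). Base composition moved with these results. The summit windows were 49.04% G or C on average and the flanks 35.1%, and its part in the motif differences was not tested. As a further reference, windows of the same length centred 250 bp upstream of the start of all 19973 protein-coding genes held CACGTG in 1.58%, GAGAGA in 6.48%, CTGCGTCT in 1.01%, AATTAA in 18.8%, CANNTG in 30.8%, CATGTG in 3.25%, GGGCGG in 2.19% and TGATAA in 10.6%.

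Members with the E-box had a higher median signal, 77.5, than those without, 51.2. The share with CACGTG was 22.95% in the highest of the 4 signal groups (14 of 61), then 18.3%, 13.3% and 10% (6 of 60). Intervals were wide (13.1 to 35.5% for the highest and 3.76 to 20.5% for the lowest). The other motifs were also more frequent in the highest group than in the lowest, GAGAGA at 36.1% and 20% and CTGCGTCT at 9.84% and 3.33%. Mean G or C was 52.5% in the highest group and 47.1% in the lowest, and none of these trends was tested. The E-box centre was a median of 18 bp from the summit, and within 20 bp at 20 of the 39 members. Besides the genes above, the highest-signal members with it were *mans-3* and *tatn-1*, *bcat-1*, the cytosolic branched-chain aminotransferase, with a signal of 172 (60.4 in replicate 1 and 114 in replicate 2), and H18N23.2, a protein phosphatase regulatory subunit gene, with 140.1. These 39 members held 41 sites, and the commonest flanking bases were those of ACACGTGG and CCACGTGA, with 7 sites each, and GCACGTGC, with 6. The E-box and the GA repeat occurred together at 7 members, and 129 members held neither of these nor CTGCGTCT, *epn-1* among them.

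Motif shares on X were compared with those of the autosomal promoter peaks. CACGTG was at 16.2% of X and 15.8% of autosomal summits (135 of 857; Fisher's exact test, adjusted p = 0.921), a difference of 0.43 percentage points, and the intervals of both shares overlap. GAGAGA was at 29.05% and 30.1% (Fisher's exact test, adjusted p = 0.921). CTGCGTCT was less frequent on X, at 18 of 241 against 124 of 857 (14.5%, interval 12.2 to 17%), with an adjusted p of 0.0297 by Fisher's exact test. The share was 11.5% to 17.1% on the 5 autosomes taken singly. On X the 5 highest-signal peaks of the 18 with it were those of *nhr-1* (signal 166), *hsp-3* (121) and F28C10.3 (117), the weaker peak of *tatn-1* (106) and that of *cebp-1* (101.4). The call was lost with narrower promoter windows, 1 start per gene, the 1000 highest-signal peaks, peaks in both top lists, or replicate 1 alone (Fisher's exact test, adjusted p = 0.146 to 0.464), with X lower in each.

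GCGCAGGG, the core of the sequence that recruits the dosage compensation complex to X, was at 3 of 241 members (1.24%, interval 0.257 to 3.59%), at none of the flanks and at 1 of 857 autosomal promoter summits. The 3 members were *nspc-17*, *ins-39*, an insulin-like peptide gene, and *svh-5*, an Ets-domain gene, and *svh-5* was chosen after its value was seen. Neither exact test passed (adjusted p = 0.281 against flanks and 0.158 against autosomes), and with a window of 100 bp to either side it was at 7 members (adjusted p = 0.00337 against autosomes and 0.0234 against flanks). The 8 bases occurred in 0.11% of X and 0.035% of all promoter windows. Of 2080 6-base sequences compared between X and autosomal promoter summits by Fisher's exact test, 0 (0%) passed an adjusted p of 0.05, and 157 had an unadjusted p under 0.05. The lowest adjusted p was 0.239, for AAATTC, at 1.66% of X and 8.05% of autosomal summits.

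**Figure D3:**
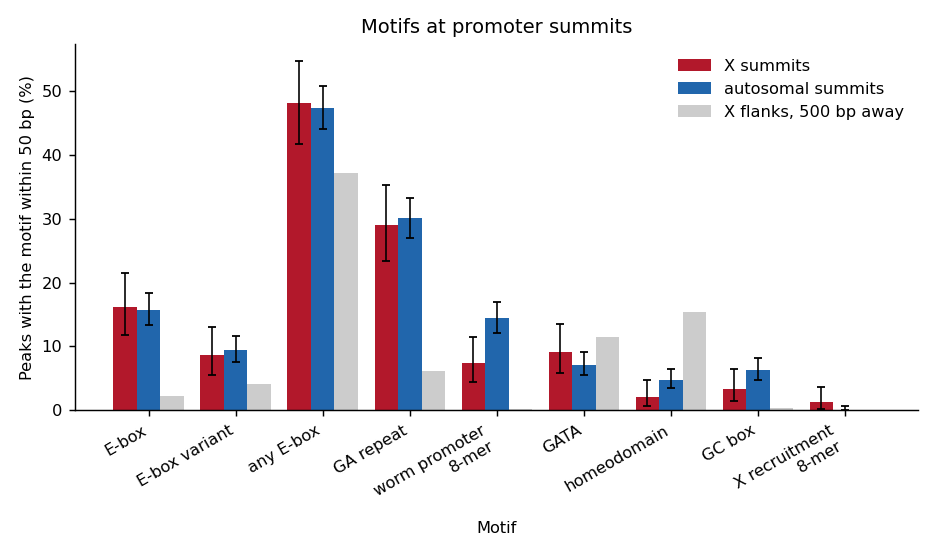
Share of promoter peaks (y axis, %) with each motif within 50 bp of the summit on X (red), on the autosomes (blue) and in X flanks 500 bp away (grey), with exact 95% intervals on the summit shares. The E-box, the GA repeat and CTGCGTCT, here called the worm promoter 8-mer as a name only, stand above their flanks. CTGCGTCT is lower on X than on the autosomes. The bases behind each label are those given in the text.

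Promoter peaks on X rarely lay in the windows of more than 1 gene. The windows of at least 2 genes held the summit at 20 of 241 members (8.30%, interval 5.14 to 12.5%) and at 250 of 857 autosomal promoter peaks (29.2%, interval 26.2 to 32.3%), with an adjusted p of 3.43e-12 by Fisher's exact test. The share was 26.95% to 35.3% on the 5 autosomes. The windows themselves overlapped less on X. Bases in the windows of 2 or more genes were 4.51% of all window bases on X and 11.3% on the autosomes. Fisher's exact test above took no account of this difference in annotation. Its p-value therefore cannot separate a property of the peaks from the spacing of the genes. Shared X peaks included that of *rab-14*, a Rab GTPase gene, and *nipi-3*, with a signal of 181 (83.1 in replicate 1 and 103 in replicate 2), and that of the ubiquitin-conjugating enzyme genes *ubc-21* and *ubc-22*, with 75.2. With peaks in the window of exactly 1 gene on both sides, a comparison chosen after seeing the data, CTGCGTCT was again lower on X, at 16 of 221, with a difference of -8.74 percentage points from the autosomes (Fisher's exact test, adjusted p = 0.0077).

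The summits lay a median of 277 bp upstream of the start on X and 229 bp on the autosomes, and 94.2% were upstream in both. From 0 to 200 bp upstream there were 74 X summits (30.7%) and 330 autosomal summits (38.5%), which did not pass after adjustment over the 4 comparisons (Fisher's exact test, adjusted p = 0.0567; unadjusted p = 0.0283). The median signal was 50.2 for the 30 members within 100 bp, 61.7 for the 78 members past 200 and up to 400 bp and 54.3 for the 28 members beyond 700 bp. By annotation, 183 summits (75.9%) were intergenic, 42 lay in introns, 12 in 5′ untranslated regions, 2 in 3′ untranslated regions and 2 in coding exons. The summits in 3′ untranslated regions were those of the sulfur metabolism genes *cdo-1* (85.8) and *suox-1* (73.8), chosen after their values were seen. The same kind of window of a tRNA gene held 13 members, with the peak of C28G1.2 and *sec-15* the strongest (signal 111, chosen likewise), that of a snoRNA gene 2 and that of a microRNA gene 0.

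**Figure D4:**
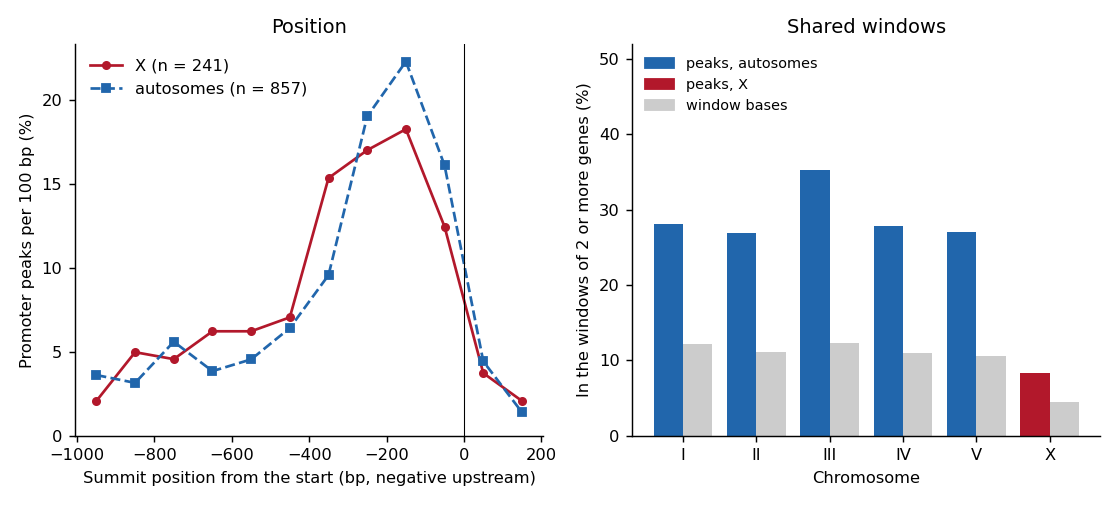
Left, share of promoter peaks per 100 bp (y axis, %) by summit position from the start (x axis, bp) on X (n = 241) and the autosomes (n = 857). Right, share of promoter peaks (coloured bars) and of window bases (grey) in the windows of 2 or more genes on each chromosome (%). The X peak share, 8.30%, is the lowest of the 6 chromosomes.

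The members were spread along the chromosome. When X was divided into 3 equal stretches, they held 72, 82 and 87 members and 871, 977 and 883 protein-coding genes. Neighbouring summits were a median of 43788 bp apart, and the longest stretch without one was 588161 bp (chrX:1627157-2215318). Of the 495 X peaks away from *mdl-1*, 48.7% were in promoter windows (interval 44.2 to 53.2%), which cover 21.8% of the chromosome. On the autosomes it was 53.9% of peaks, with 27.2% of bases in windows. A total of 250 X genes had a member in their window, which is 9.15% of the 2731 protein-coding genes of X. The autosomes had 1056 of 17242 genes (6.12%), with 4.21% on chromosome V and 9.47% on chromosome III.

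A total of 12 genes had a pair of member peaks. At *nipi-3* the summits lay 281 and 825 bp upstream with signals of 274 and 181. At *bet-2* the signals were 298 and 125.7, at *tatn-1* 264 and 106, at H18N23.2 140.1 and 47.4, and at *nhr-48* 127 and 38.4. *dpyd-1*, a pyrimidine breakdown enzyme, had a summit on either side of a start, with signals of 114 and 43.2. The heterochronic gene *lin-14*, which sets the timing of early larval fates, had summits 65 and 899 bp upstream with signals of 35.5 and 65.4. The 14-3-3 gene *ftt-2* (57.9 and 57.5), the actin gene *act-4* (57.6 and 46.8), F48F7.5, T14B1.1 and *lfi-1* made up the rest. At *ftt-2* the summits lay 200 bp apart.

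The genes were described with 28 lists made from gene names, of which 87 of the 250 genes belonged to at least 1 and 163 to none. A list holds only the names written into it, so genes of like function can be missing from it. Counts and ranks below are those of the lists. Counts are given beside the 9.15% of all X genes, without a test, and intervals are wide. Vesicle trafficking had the most members, with peaks at 13 of 34 X genes (38.2%, interval 22.2 to 56.4%), against 34 of 143 on the autosomes (23.8%). After *epn-1* came *rab-14*, then *rme-4*, a DENN-domain activator of Rab proteins in endocytic recycling, with a signal of 134 (48.5 in replicate 1 and 85.4 in replicate 2). The AP-2 clathrin adaptor subunit gene *dpy-23* had 113 (45.8 and 70.4). Weaker peaks lay at the exocyst genes *sec-15* (111, a peak shared with C28G1.2, whose start is nearer, and with a tRNA gene) and *sec-3* (45.4), at *apa-2* (64.9), *aps-2* (33.2) and the dynamin gene *dyn-1* (41.0). These 5 genes are named after their values were seen.

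Nuclear hormone receptors, ligand-regulated transcription factors that are numerous in worms, had peaks at 8 of 23 X genes (34.8%, interval 16.4 to 57.3%) and at 16 of 246 autosomal genes (6.50%). *nhr-32* had a signal of 229 (87.1 in replicate 1 and 139.7 in replicate 2) and held CACGTG. *nhr-1* had 166 (68.9 and 106), *nhr-48* had 127 (36.3 and 88.5) and *nhr-14* had 70.9 (26.4 and 47.1), and none of these 3 held the E-box. Other transcription factors had peaks at 8 of 44. Within this list the highest were *atf-4* (106) and *atf-6* (91.4), bZIP factors of stress responses, with *cebp-1* (101.4), a C/EBP-type bZIP factor, and *lin-14*. The myelin regulatory factor homolog *myrf-2* (175.5) is outside the list and is named after its value was seen. *mxl-3*, a Max-like factor of the same protein family as the partners of Mad proteins, was among the weaker ones with 35.1 (9.88 in replicate 1 and 26.1 in replicate 2), and is named after its value was seen. Homeobox genes had 0 of 24 (upper bound 14.2%).

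Signalling lists lay above the share of all X genes, though their intervals include it. The kinase and phosphatase list had 8 of 41 (19.5%), led by *sax-1*, an NDR-type kinase gene of neurite outgrowth. Its peak, with a signal of 120.5 and an E-box, was shared with R11G1.2, whose start is nearer. Outside the list, *nipi-3* (274) and F28C10.3 (117), whose product has a protein kinase domain, had peaks too. F28C10.3 is named after its value was seen. *kin-29*, a salt-inducible-type kinase, had 79.9 (19.8 in replicate 1 and 62.3 in replicate 2), *pek-1* had 74.4 and *mbk-1*, a DYRK-type kinase, 73.1. GTPase regulators had 5 of 22, led by *rgs-6* (93.01), *git-1*, *frm-3* and *vav-1*, the last 3 at 36.4 or less. The peak of *git-1* was shared with *mboa-7*, whose start is nearer.

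Protein folding and energy lists were short on X. The chaperone list had 4 of 8. *hsp-3*, a BiP-type Hsp70 of the endoplasmic reticulum, had 121 (44.1 in replicate 1 and 68.8 in replicate 2). The others were the disulfide isomerases *pdi-6* (88.4) and *pdi-2* (53.5), and the J-domain gene *dnj-14* (85.3). The peak of *dnj-14* was shared with *glit-1*, whose start is nearer. The respiratory chain had 3 of 6, with *sdha-1* of complex II (88.7), *ucr-2.1* (44.5) and *ucr-2.2* (33.2). The summit of *sdha-1* also lay in the window of a snoRNA gene. The peak of *ucr-2.1* had no replicate 1 peak and was shared with *nmat-1*, whose start is nearer. At *ucr-2.2* the signal was 3.996 in replicate 1 and 21.4 in replicate 2. The lipid metabolism list had 7 of 37 (18.9%), led by the acyl-CoA synthetase gene *acs-17* (77.0). Then came *pcyt-1* (61.8) and *cept-1* (46.6) of phosphatidylcholine synthesis and *mboa-3* (45.8). Outside it, the phospholipase A2 gene *ipla-2* (155.6) and the ceramide cholinephosphotransferase gene *sms-2* (99.3) had stronger peaks. Both are named after their values were seen. The lysosome and autophagy list had 3 of 20, *epg-7* and the V-ATPase genes *vha-12* (64.2) and *vha-15* (40.4). The citric acid cycle and glycolysis list had 1 of 6, *idh-2* (33.2, a peak shared with C34F6.7, whose start is nearer). Outside that list, the citric acid cycle genes *sucl-1* (100.4) and *idhb-1* (38.4) also had peaks, and both are named after their values were seen. Detoxification enzymes had 2 of 31, *gst-42* (88.1) and *mrp-2* (43.5). The proteasome and ubiquitin list had 3 of 25, *fbxb-58* and the pair *ubc-21* and *ubc-22*.

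Chromatin and transcription genes had 4 of 30 (13.3%), *bet-2* (298), the sirtuin gene *sir-2.2* (84.9), *set-20* (53.03) and the linker histone gene *his-24* (42.3). RNA-binding genes had 2 of 7, *puf-9* and the poly(A)-binding protein gene *pab-2* (70.4). The ribosomal protein gene *rpl-11.2* (87.8) was 1 of 2 on X, and *eef-1A.2* was 1 of 3 translation factors or synthetases. Among genes of sex determination and dosage compensation, 1 of 8 had a peak, *sdc-1*, which acts in both processes, with 43.7 (14.98 in replicate 1 and 25.99 in replicate 2).

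Ion channels had a peak at 0 of 69 X genes, with an upper bound of 5.21%, and at 2 of 230 autosomal genes (0.87%). Neuropeptides and insulin-like peptides had 1 of 38 (*ins-39*, 157.6), neurotransmitter and peptide receptors 1 of 50 (*sprr-2*, 33.3) and chemoreceptors 1 of 28 (*srv-7*, 34.5). The intervals of these 3 lists include 9.15%, and their autosomal shares were 3.54%, 1.18% and 0.787%. B0410.3, with a neuropeptide-like product, is outside the list of peptides and had a peak (54.04). It is named after its value was seen. Synaptic genes had 3 of 27 (11.1%), the liprin gene *syd-2* (83.5), *unc-18* (40.8), needed for vesicle fusion, and the stomatin gene *sto-4* (35.3). Cuticle collagens had 1 of 31 (*col-185*, 36.9), moulting genes 3 of 44 (*tsp-21*, *ptr-24* and *nas-10*, all at 38.3 or less), adhesion genes 2 of 44 (*hst-2*, 65.2, and *hst-6*) and muscle genes 1 of 18 (*act-4*). The summits of *col-185* and *nas-10* also lay in the window of a tRNA gene. No gene of the mitochondrial ribosome list is on X.

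**Figure D5:**
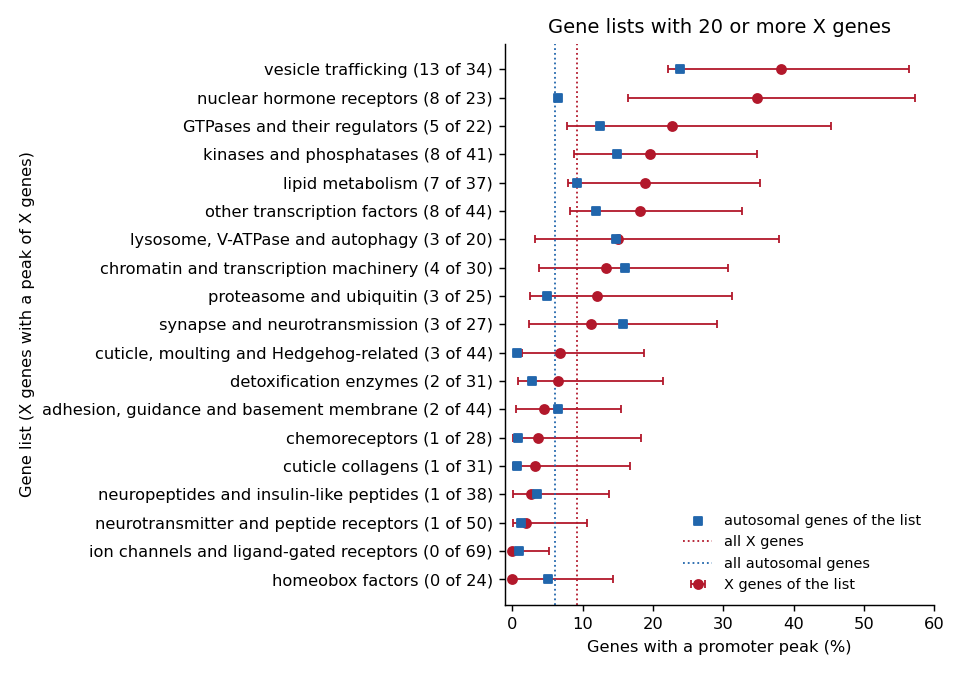
Share of X genes (red circles, exact 95% intervals) and autosomal genes (blue squares) with a promoter peak (x axis, %), for lists with 20 or more X genes. Dotted lines mark all X genes (9.15%, red) and all autosomal genes (6.12%, blue). Vesicle trafficking and nuclear hormone receptors lie highest on X, and ion channels and homeobox factors lie at 0.

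A few short pathways were assembled after the values were seen and have no test. Their genes were picked by hand, with their peaks known, so counts within them cannot be set against the 9.15% of all X genes with a peak. The AP-2 adaptor, which links cargo to clathrin, has 3 subunit genes on X, *dpy-23*, *apa-2* and *aps-2*, all with a peak, and *apb-1* on chromosome III had one too (69.4). The unfolded protein response answers misfolded proteins in the endoplasmic reticulum. All 4 X genes picked for it had a peak. They were *hsp-3*, *atf-4* (50.2 in replicate 1 and 54.3 in replicate 2), *atf-6* (48.8 and 41.6) and the PERK kinase gene *pek-1* (31.1 and 42.2). Of these, *atf-6* was the one with the higher value in replicate 1. Of the autosomal genes picked, *xbp-1* had a peak (74.6) and *ire-1* and *hsp-4* had none. In the breakdown of tyrosine and phenylalanine, the X genes *tatn-1*, *gst-42* (35.98 in replicate 1 and 57.9 in replicate 2) and *fah-1* (42.6) had peaks. On the autosomes *pah-1* (69.3) and *hgo-1* (44.3) had one and *hpd-1* had none. Both *tatn-1* and *gst-42* held CACGTG within 50 bp of the summit, as did *pek-1*.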

How the data were processed

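ChIP-seq peak lists of 2 biological replicates of whole L2 larvae were used, in ce11. Per the labels and the deposited read-me text, each replicate's relaxed list came from its alignment and a control, a pooled list from both, and the IDR list from these. Which aligner, peak caller and IDR threshold were used, and the depth, is not given in the sources used here. Peak signal is the deposited value of the authors, with no stated normalization. The lists hold 30000 relaxed peaks per replicate, 28651 pooled peaks and 2103 IDR peaks, all of which are also in the pooled list. With depth unknown, precision means counting error among peaks and how far 2 replicates differ.

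Summits were placed against 29784 transcript starts of 19973 protein-coding genes (WBcel235, Ensembl release 115), and a peak in several windows counted for each gene. Sequence and gene products came from RefSeq on the same build; all 250 genes had a product. Replicate peaks were matched by overlap of at least 1 bp, and 1 peak of each replicate matched 2 members. Motifs were sought within 50 bp of the summit. McNemar's test took 1 flank per peak, picked at random (seed 7), whereas flank percentages average both. All p-values were adjusted by Benjamini-Hochberg within a family (9 motifs, 2080 6-mers, 4 peak properties). The replicates form 1 group, so no groups of samples were compared. The scripts were tested on simulated data. The tests ran in scipy 1.17.1, with pandas 2.3.3 and numpy 2.4.6 for tables, matplotlib 3.10.9 for plots and Python 3.11.15.

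The members, lists and motifs were chosen with earlier results of these data known. Named genes were those of the 20 highest-signal members and the 10 highest-signal members with CACGTG. Up to 4 per list by signal, genes with 2 or more member peaks and the 3 lowest-signal members were also named. Others share a peak with a named gene or are said to be named after their values were seen. Alternatives covered the window, gene assignment, the region left out, peak number, replicates, overlap rule, motif window, flanks and build.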

Additional observations from a re-analysis of the deposited data

How the results depend on the processing

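No result reversed. The E-box excess at X summits over flanks held under every alternative tried for it (8.71 to 18.3 percentage points), as did the lower share of X peaks in shared windows where it could be computed, which excludes the nearest start only and peaks in 1 window. With the 1000 highest-signal IDR peaks there were 120 X promoter peaks, 128 genes (4.69% of X genes) and 47 listed genes, vesicle trafficking fell to 7 genes, the share above the median signal rose to 13.01 percentage points over the autosomes, and 1 6-mer was called. The share of X genes was 7.14% with windows of 500 bp upstream and 100 bp downstream, 11.8% with 2000 bp upstream (where 2 6-mers were called), 7.95% with 1 start per gene, 6.48% with peaks in both top lists and 7.69% with peaks in 1 window. The X difference in CTGCGTCT was no longer past the threshold with the narrower window (-5.995 percentage points), 1 start per gene (-4.96), the 1000 highest peaks (-7.46) and peaks in both top lists (-6.46), and with each replicate alone it ran from -7.86 to -4.75, lost in replicate 1 alone. The cause of these shifts was not tested. The ce10 list held 531 peaks on X. Of 650 alternative values, 556 stayed on their side of the threshold or within their range. No paired analysis was possible because the replicates form 1 group. Unknown depth limits what a missing peak shows, and lists with few X genes give wide intervals.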
